A study of Homo sapiens with 12 samples.

Results

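DNMT1, DNMT3A, DNMT3B, UHRF1, UHRF2, TET1, TET2, TET3 and MBD2, genes that write, copy, remove or read methylation of DNA, were followed in a human cell line given acriflavine for 24 h. The genes were chosen by symbol, and 8 of these 9 were matched by Ensembl identifier to a row of the deposited table of 63152 genes. UHRF1 was not matched by the annotations used and is not analysed here. Poly-A RNA was sequenced from 12 cultures, 4 each of control, 2.5 µM acriflavine and 5 µM acriflavine. HepG2, a hepatoblastoma line, is the labelled cell line, yet descriptions in all 3 groups give HepG2S1, which was grown from HepG2 under rising doses of the cancer drug sorafenib. Control cells are called untreated in one place, whereas by the protocol text cells got the drug or its vehicle, DMSO. Acriflavine, a blend of acridine dyes, binds DNA, and the study set out to look at its effect on the epithelial-to-mesenchymal transition of cancer cells. The labels call the 4 cultures of a group biological replicates of this single line.

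Library totals ranged from 10733567 to 15116842 counts, and 16839 genes had enough counts to be tested, 7 of the 8 matched members among them. The cell type label went against its markers. All 10 hepatocyte markers checked were under 1 CPM (counts scaled to library size) in the controls, with albumin (ALB) and alpha-fetoprotein (AFP) at 0 counts there. Their summed level was 0.952 to 1.86 CPM over the control libraries, 0.984 to 2.39 CPM at 2.5 µM and 4.002 to 6.87 CPM at 5 µM. The 5 fibroblast markers summed to 618 to 768 CPM, 548 to 604 CPM and 556 to 598 CPM in the same order, mostly from decorin (DCN), with COL1A2 at 0 control counts. The 5 blood and 5 endothelial markers were each under 1 CPM in the controls, and their sums reached 4.68 and 8.67 CPM at most, at 5 µM. The part of other cells in the results was not tested, and in bulk RNA a change in the number of cells of one kind cannot be told apart from a change in RNA per cell. The cells are therefore called by their label only.

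In mammals, DNA methylation sits mostly on cytosines of CG dinucleotides. DNMT1 copies the marks to the new strand after replication, guided by UHRF1, while DNMT3A and DNMT3B place new marks. The TET enzymes oxidise 5-methylcytosine, a step on the way to its removal, and MBD2 binds methylated CG and recruits the NuRD complex, which remodels and deacetylates chromatin. DNMT1 and UHRF1 are known as genes of dividing cells, since marks must be copied at each S phase. These are mRNA levels, and neither methylation nor enzyme activity was measured in these data.

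At both doses MBD2, DNMT1 and TET2 mRNA were higher than in the controls and DNMT3B mRNA was lower. UHRF2 was lower at 5 µM. At 5 µM, 3 of the 7 tested members rose and 2 fell against control, and DNMT3A and TET3 did not pass the test. Over all genes tested 78.2% were called in this comparison, 38.7% as higher and 39.4% as lower, so 5 called of 7 is near the background. For 5 of the 7, all 4 treated values lay on one side of the controls, as they did for 70.8% of all genes. At 2.5 µM, 3 rose and 1 fell, against a background of 59.1% called, 30.7% as higher and 28.5% as lower. There 3 of the 7 had no overlap with the controls, against 50.5% of all genes. None of the 7 was called with a change of at least 2-fold at 5 µM or at 2.5 µM against control, where 26.4% and 10.1% of all genes were. The median absolute log2 fold change at 5 µM against control was 0.32 over these 7 and 0.55 over all genes tested, and at 2.5 µM it was 0.257 over these 7 and 0.302 over all genes.

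**Figure D1:**
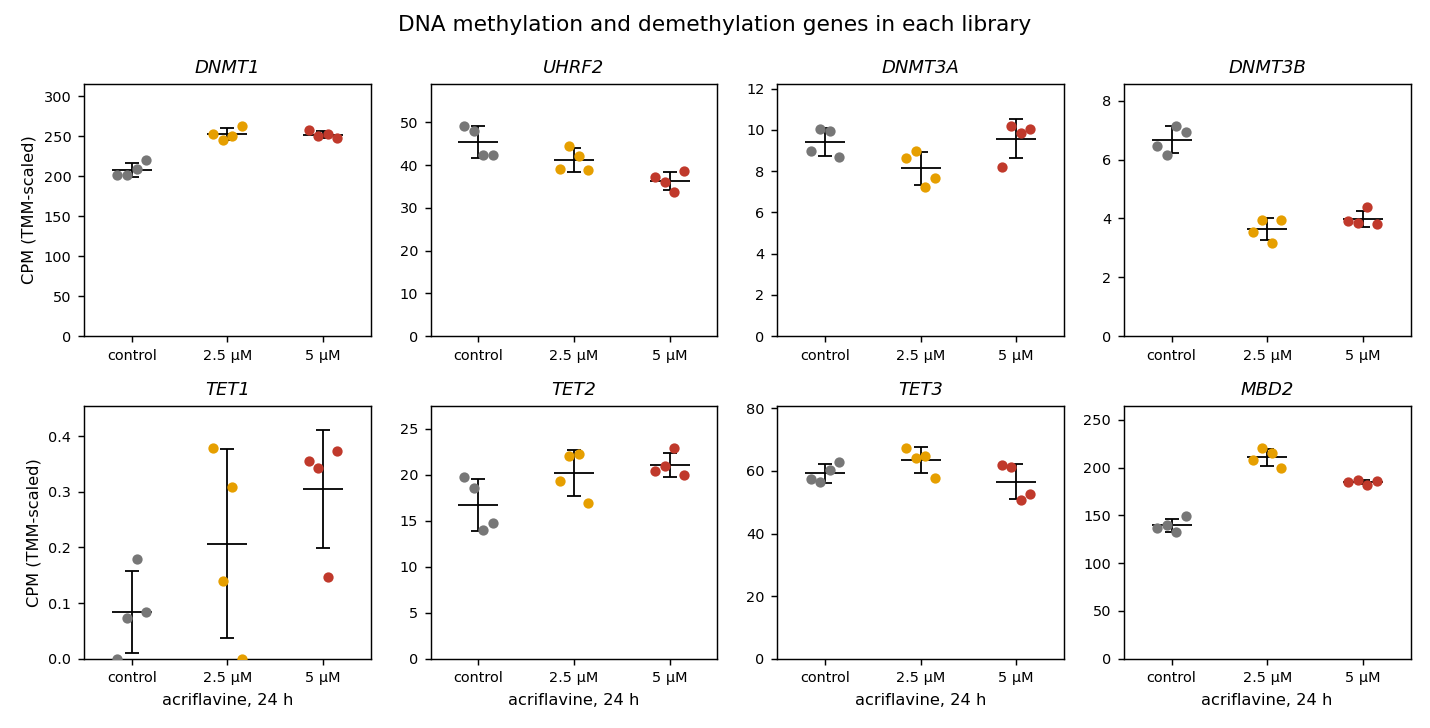
Level of the 8 matched genes in each of the 12 libraries, in CPM after scaling by TMM (trimmed mean of M values), each panel with its own axis from 0. Points are libraries, the long bar is the mean and the whiskers the SD (n = 4). DNMT1 and MBD2 sit above the controls at both doses and DNMT3B below them, while TET1 is at most 0.378 CPM in any library.

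Levels of different genes were compared as CPM per kilobase of merged exon, in which isoforms are not told apart. In the controls MBD2 was highest at 24.0 ± 1.17 CPM per kb (SD, n = 4), followed by DNMT1 at 21.2 ± 0.893 CPM per kb. Their control values did not overlap. TET3 (4.83 ± 0.241) and UHRF2 (4.58 ± 0.369 CPM per kb) came next, with overlapping values. DNMT3B stood at 1.44 ± 0.0973 CPM per kb, TET2 at 1.02 ± 0.172 and DNMT3A at 0.783 ± 0.0555, with no overlap between these neighbours. TET1 was last at 0.00906 ± 0.00790 CPM per kb. At both doses the order was the same except for one exchange: TET2, at 1.23 ± 0.153 CPM per kb at 2.5 µM and 1.28 ± 0.0787 at 5 µM, stood above DNMT3B, at 0.789 ± 0.0819 and 0.862 ± 0.0579 CPM per kb. At both doses the values of DNMT3B and DNMT3A overlapped.

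The sequences below are promoter windows of DNMT1 and MBD2, which rose, and DNMT3B, which fell, at both doses. Each is 250 bases before to 50 bases after a start, from RefSeq on GRCh38.p14, read 5′ to 3′ on the gene's strand, with every CG in capitals. The counts were made on GRCh37, so these coordinates are not those of the counted reads. The windows are chr19:10194904-10195203 (minus strand) for DNMT1, chr18:54224620-54224919 (minus strand) for MBD2 and chr20:32779602-32779901 (plus strand) for DNMT3B. The DNMT3B window belongs to a start inside the span of the gene, and gene counts do not show which start the cells used.
DNMT1: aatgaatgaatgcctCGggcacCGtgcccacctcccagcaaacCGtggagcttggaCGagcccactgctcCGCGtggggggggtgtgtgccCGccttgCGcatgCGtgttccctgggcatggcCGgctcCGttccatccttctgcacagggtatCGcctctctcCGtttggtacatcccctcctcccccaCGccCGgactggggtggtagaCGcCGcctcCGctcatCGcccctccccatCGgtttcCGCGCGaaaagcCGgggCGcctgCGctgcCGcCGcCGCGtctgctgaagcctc
MBD2: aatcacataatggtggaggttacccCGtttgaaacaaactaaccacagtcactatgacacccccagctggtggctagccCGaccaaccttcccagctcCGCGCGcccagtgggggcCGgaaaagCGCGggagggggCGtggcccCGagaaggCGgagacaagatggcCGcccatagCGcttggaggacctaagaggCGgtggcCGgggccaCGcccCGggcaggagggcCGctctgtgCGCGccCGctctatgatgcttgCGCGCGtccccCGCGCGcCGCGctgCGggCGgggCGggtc
DNMT3B: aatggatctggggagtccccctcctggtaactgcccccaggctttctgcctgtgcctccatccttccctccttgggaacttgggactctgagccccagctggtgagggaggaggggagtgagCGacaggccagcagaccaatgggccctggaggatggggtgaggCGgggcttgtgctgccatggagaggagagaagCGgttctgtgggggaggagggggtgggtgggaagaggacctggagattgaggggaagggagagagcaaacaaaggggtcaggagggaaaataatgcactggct

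The DNMT1 window holds 30 CG, more than 77.6% of the 35116 promoter windows in the table, and the MBD2 window holds 32, more than 81.1%. The DNMT3B window, at a start inside the gene, holds 3, fewer than the lower quartile of 4. No DNMT3B window at another start was examined. Of the other members called at 5 µM, UHRF2, which fell, has 26 CG in its window. TET2, which rose, has windows with 13 and 35. A link of CG content with the direction of change was not tested. Motifs were searched on both strands. The E2F motif, as TTTCCCGC, TTTGGCGC, TTTCGCGC or TTTGCCGC, was found in 3.31% of all windows. Among the windows of the 8 matched genes it was found in that of DNMT1, as TTTCGCGC on the opposite strand beside the start, at the letters GCGCGAAA. E2F factors switch on genes of S phase. The DNMT1 window also holds GCGCATGC, the core of the site of the activator NRF1, which 3.05% of all windows hold. The SP1 motif GGGCGG occurs in 45.0% of windows, among them that of MBD2, with 3 matches, and not those of DNMT1 and DNMT3B printed here. TGACGTCA, the cAMP response element, was in 1.85% of windows and in none of these 3. A match is a description of letters and shows no binding.

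DNMT1 (ENSG00000130816), the maintenance methyltransferase, was higher at both doses by about the same amount. The 4 control libraries had 201, 201, 208.5 and 219.7 CPM. The 2.5 µM libraries had 253, 245, 250.2 and 263 CPM and the 5 µM libraries 258, 249.7, 252 and 247 CPM. Every treated library lay above every control. DNMT1 averaged 252 ± 4.57 CPM at 5 µM and 208 ± 8.74 CPM in the controls (SD, n = 4 each), a log2 fold change of 0.28 ± 0.04 (edgeR adjusted p = 6.88e-07), or 1.21-fold. The ± on a log2 fold change is its standard error (SE). At 2.5 µM the mean was 253 ± 7.71 CPM and the log2 fold change 0.28 ± 0.04 (edgeR adjusted p = 1.14e-06). Between 5 µM and 2.5 µM the difference was -0.0048 ± 0.0433 (edgeR adjusted p = 0.929) and changed sign in 10 of 20 alternatives. DNMT1 had 13227 counts over the 5 µM libraries and 10257 over the controls, so counting error adds little. Its exons share 83 bases with S1PR2, a receptor gene on the same strand, which had 56 counts at 5 µM and 51 in the controls.

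UHRF2 (ENSG00000147854), a relative of UHRF1 that also binds methylated DNA and histone tails, was lowest at 5 µM. It had 49.2, 47.95, 42.3 and 42.35 CPM in the controls, 39.2, 44.55, 42.3 and 38.9 CPM at 2.5 µM and 37.2, 36.1, 33.6 and 38.55 CPM at 5 µM. The 5 µM values lay below all those of both other groups, and control replicates 1 and 2 lay above control replicates 3 and 4. UHRF2 averaged 36.4 ± 2.08 CPM at 5 µM and 45.5 ± 3.66 CPM in the controls (SD, n = 4 each), a log2 fold change of -0.32 ± 0.07 (edgeR adjusted p = 8.93e-05). At 2.5 µM the log2 fold change was -0.14 ± 0.07 and did not pass (edgeR adjusted p = 0.0681). It passed without control replicate 3 (edgeR adjusted p = 0.0177), control replicate 4 (0.0334) or 2.5 µM replicate 2 (0.0347), and the range over 20 alternatives was 0.0177 to 0.232. UHRF2P1, a processed pseudogene that shares sequence with UHRF2, had 5.04 ± 0.194 CPM at 5 µM and 6.28 ± 0.565 CPM in the controls (log2 fold change -0.31 ± 0.13, edgeR adjusted p = 0.0338). That pseudogene call was lost in 7 of 20 alternatives, among them those that left out control replicate 1 (0.0975) or the 5 µM replicates 2 (0.0576) and 3 (0.0661). How reads were divided between the gene and its copy is not given in the sources used here.

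DNMT3B (ENSG00000088305), a de novo methyltransferase active in early embryos and in many tumours, fell the most of the 7 tested members at both doses. The controls had 6.48, 6.15, 7.15 and 6.93 CPM. The 2.5 µM libraries had 3.55, 3.935, 3.16 and 3.96 CPM, and the 5 µM libraries 3.91, 3.86, 4.39 and 3.805 CPM. No treated library reached the lowest control. DNMT3B averaged 3.99 ± 0.268 CPM at 5 µM and 6.68 ± 0.451 CPM in the controls (SD, n = 4 each), a log2 fold change of -0.74 ± 0.13 (edgeR adjusted p = 5.66e-06). The level thus fell by 39.9%. At 2.5 µM it averaged 3.65 ± 0.379 CPM, with a log2 fold change of -0.86 ± 0.13 (edgeR adjusted p = 1.00e-06). The difference of 5 µM from 2.5 µM, 0.12 ± 0.14, did not pass (edgeR adjusted p = 0.448). The gene is measured from few reads, with 210 counts over the 5 µM libraries (exact Poisson 95% interval 183 to 240.4) and 329 over the controls (294 to 366.5). Such intervals cover counting error only.

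DNMT3A (ENSG00000119772), the de novo methyltransferase of most adult tissues, had 8.97, 10.03, 9.92 and 8.71 CPM in the controls, 8.62, 8.995, 7.24 and 7.65 CPM at 2.5 µM and 8.18, 10.2, 9.87 and 10.04 CPM at 5 µM. The groups overlapped in every comparison, and replicate 1 stood below the other 3 libraries at 5 µM. Against control the log2 fold change was 0.03 ± 0.11 at 5 µM (edgeR adjusted p = 0.795), which turned negative without control replicate 4 (-0.0109), and -0.21 ± 0.11 at 2.5 µM (edgeR adjusted p = 0.0972). DNMT3A was higher at 5 µM than at 2.5 µM by 0.24 ± 0.11 on the log2 scale (edgeR adjusted p = 0.047), and 68.4% of all genes were called in that comparison. This call was lost in 11 of 20 alternatives (range 0.00818 to 0.155). Leaving out any control ended it (adjusted p of 0.0565, 0.0568, 0.0501 and 0.0519 for replicates 1 to 4). So did leaving out 2.5 µM replicate 1 (0.053), 3 (0.155) or 4 (0.11), or 5 µM replicate 2 (0.097), 3 (0.0801) or 4 (0.0992), and dropping the low count filter (0.11).

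**Figure D2:**
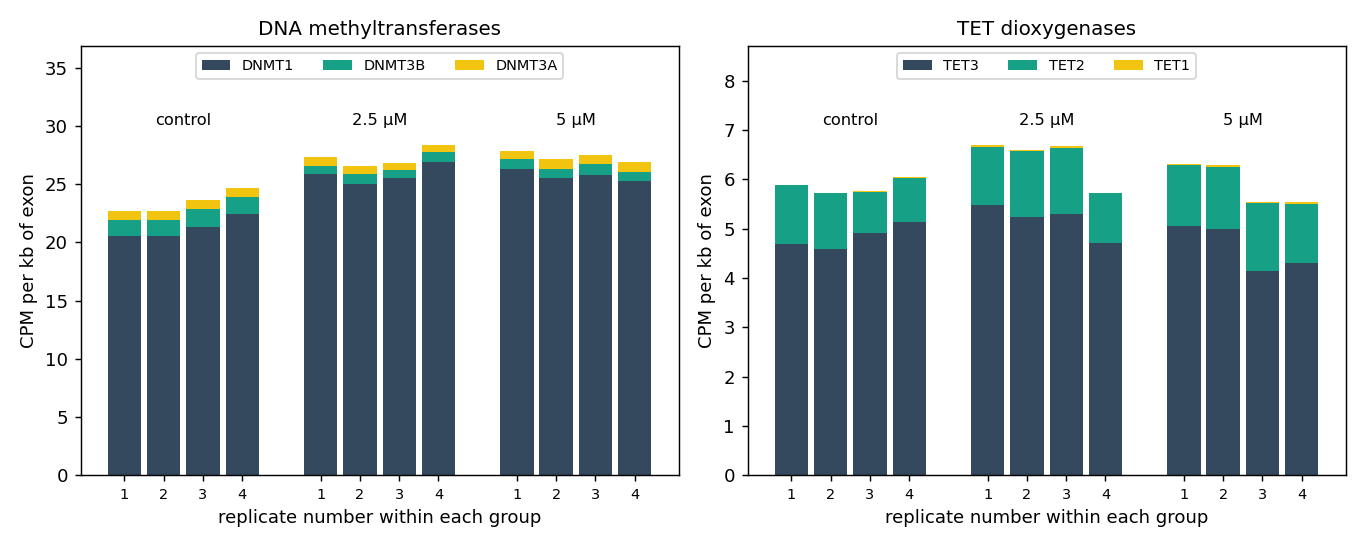
CPM per kilobase of merged exon for the DNA methyltransferases (left) and the TET dioxygenases (right), stacked within each of the 12 libraries from an axis at 0. DNMT1 makes up most of the methyltransferase bar in every library, the DNMT3B share is smaller at both doses than in the controls, and TET3 is the main TET mRNA throughout.

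Per kilobase, DNMT1 made up nearly all of the methyltransferase mRNA, and more of it under the drug. Its share of the sum of DNMT1, DNMT3A and DNMT3B was 93.9 ± 0.408% at 5 µM and 90.5 ± 0.413% in the controls (SD, n = 4 each), and the values did not overlap. The share was 94.6 ± 0.506% at 2.5 µM. DNMT3B held 3.15 ± 0.196% of the sum at 5 µM, against 6.16 ± 0.284% in the controls. DNMT3A held 2.91 ± 0.320% at 5 µM, against 3.35 ± 0.315% in the controls. The sum itself was 27.4 ± 0.416 CPM per kb at 5 µM and 23.4 ± 0.935 CPM per kb in the controls.

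TET2 (ENSG00000168769), a dioxygenase often mutated in blood cancers, was moderately higher under the drug. It had 19.7, 18.6, 13.95 and 14.8 CPM in the controls, 19.4, 22.1, 22.3 and 17.0 CPM at 2.5 µM and 20.4, 20.9, 22.9 and 20.0 CPM at 5 µM. The 5 µM values all lay above the controls, by a small margin over control replicate 1, while the 2.5 µM values overlapped them. TET2 averaged 21.0 ± 1.296 CPM at 5 µM and 16.8 ± 2.83 CPM in the controls (SD, n = 4 each), a log2 fold change of 0.32 ± 0.10 (edgeR adjusted p = 0.00516, range over 20 alternatives 0.00047 to 0.0494). At 2.5 µM the log2 fold change was 0.26 ± 0.10 (edgeR adjusted p = 0.0297). Dropping control replicate 3 (0.184) or 4 (0.107), or 2.5 µM replicate 2 (0.103) or 3 (0.102), ended that call, with a range of 0.00626 to 0.184 over 20 alternatives. TET2 was 0.06 ± 0.10 higher on the log2 scale at 5 µM than at 2.5 µM (edgeR adjusted p = 0.581).

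TET3 (ENSG00000187605), the TET gene best known from the zygote and the brain, was the most abundant TET mRNA. It had 57.4, 56.4, 60.2 and 63.0 CPM in the controls, 67.2, 64.2, 64.9 and 57.7 CPM at 2.5 µM and 61.9, 61.2, 50.7 and 52.7 CPM at 5 µM. The 3 groups overlapped, and the 5 µM libraries split into a higher and a lower pair. Against control TET3 did not pass at either dose (-0.07 ± 0.07 at 5 µM, or 0.0681 with library size scaling, edgeR adjusted p = 0.353 by TMM, and 0.10 ± 0.07 at 2.5 µM, edgeR adjusted p = 0.187). It was lower at 5 µM than at 2.5 µM (log2 fold change -0.17 ± 0.07, edgeR adjusted p = 0.0232), a call lost in 7 of 20 alternatives (range 0.00693 to 0.291). These were the scalings by RLE (0.0763), upper quartile (0.116) and library size (0.291), DESeq2 (0.103), and the runs without 2.5 µM replicate 1 (0.0727), 5 µM replicate 3 (0.165) and 5 µM replicate 4 (0.117). TET3 made up 77.8 ± 2.33% of the summed CPM per kb of the TET genes at 5 µM and 82.4 ± 2.95% in the controls (SD, n = 4 each), with overlapping values, and TET2 made up most of the rest.

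TET1 (ENSG00000138336), the TET gene of embryonic stem cells, was close to silent. The controls held 0, 1, 2 and 1 counts, the 2.5 µM libraries 5, 2, 4 and 0, and the 5 µM libraries 4, 4, 2 and 6. It was left out of the test by the filter on low counts. Over the groups there were 4 counts in the controls (exact Poisson 95% interval 1.09 to 10.2), 11 at 2.5 µM (5.49 to 19.7) and 16 at 5 µM (9.14 to 26.0), so the intervals overlapped. Without that filter the log2 fold change at 5 µM against control was 1.78 ± 0.76 (edgeR adjusted p = 0.0399), and at 2.5 µM it was 1.21 ± 0.83 (edgeR adjusted p = 0.302). That fit called 15618 of 30981 genes at 5 µM against control, and the TET1 values rest on the few counts above.

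MBD2 (ENSG00000134046), the reader, showed the largest rise of the 7 tested members and was highest at the lower dose. The controls had 137, 139.6, 133 and 149 CPM. The 2.5 µM libraries had 208, 220.1, 216 and 199.5 CPM, and the 5 µM libraries 185, 187, 182 and 186 CPM. The 3 groups did not overlap. MBD2 averaged 185 ± 2.24 CPM at 5 µM and 139.6 ± 6.82 CPM in the controls (SD, n = 4 each), a log2 fold change of 0.40 ± 0.05 (edgeR adjusted p = 1.51e-09), or 1.32-fold. At 2.5 µM it averaged 211 ± 9.08 CPM, with a log2 fold change of 0.59 ± 0.05 (edgeR adjusted p = 5.90e-13), or 1.51-fold. It was lower at 5 µM than at 2.5 µM (log2 fold change -0.19 ± 0.05, edgeR adjusted p = 0.00045, range over 20 alternatives 7.76e-05 to 0.0486).

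**Figure D3:**
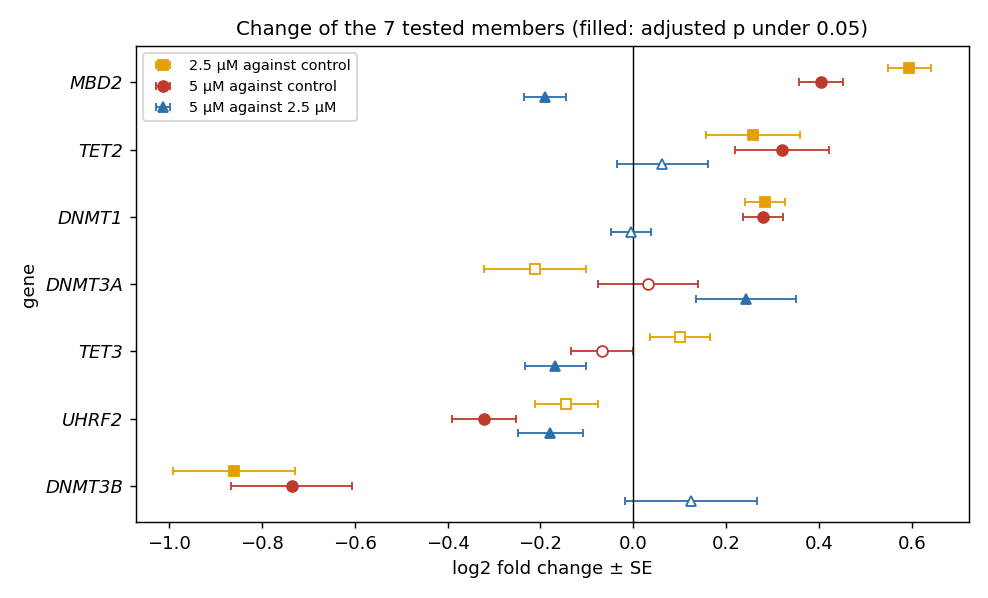
Log2 fold change with its SE for the 7 tested members in the 3 comparisons, with filled symbols for an adjusted p under 0.05. MBD2, TET2 and DNMT1 lie to the right of 0 at both doses and DNMT3B to the left, while the 5 µM against 2.5 µM differences lie between -0.19 and 0.24.

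At 5 µM against 2.5 µM, DNMT3A was called as higher and MBD2, UHRF2 and TET3 as lower, 4 of 7 beside 68.4% of all genes, of which 33.6% were higher and 34.8% lower. Groups stood clear of each other for 2 of the 7, beside 62.2% of all genes, and none of the 7 was called with a 2-fold change, beside 13.1%. UHRF2 was lower at 5 µM (log2 fold change -0.18 ± 0.07, edgeR adjusted p = 0.0227, range over 20 alternatives 0.0134 to 0.278). That call was lost in 6 alternatives, namely RLE (0.0683), upper quartile (0.114) and library size scaling (0.278), DESeq2 (0.0856), and the runs without 2.5 µM replicate 2 (0.0881) or 5 µM replicate 3 (0.118). Of the 4 calls, that of MBD2 alone held in all 20 alternatives. The comparisons with control share the control libraries, so their values are given side by side and are not independent.

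Other readers of methylated CG moved both ways at 5 µM against control. All 7 tested passed, 3 higher and 4 lower, where 78.2% of all genes were called, 38.7% as higher and 39.4% as lower. Their median log2 fold change was -0.46, beside -0.01 over all genes tested. MBD3, the relative of MBD2 in the alternative form of NuRD, rose to 65.0 ± 0.963 CPM at 5 µM, against 45.8 ± 1.82 CPM in the controls (0.50 ± 0.06, edgeR adjusted p = 2.38e-09). ZBTB4, a zinc finger reader, rose by 0.62 ± 0.05. ZBTB33, also called Kaiso, fell by 0.75 and ZBTB38 fell by 1.09 on the log2 scale. Of the 13 NuRD subunits, with MBD3 among them, 5 rose, 5 fell and 3 did not pass, beside the same shares of all genes. Their median was 0.04. With library size scaling 7 were higher and 4 lower, with a median of 0.18. By the same test GATAD2A, which joins the MBD protein to the remodeller, rose to 259.9 ± 4.95 CPM at 5 µM, against 123 ± 6.80 CPM in the controls, and the histone binder RBBP4 fell (-0.92 ± 0.05).

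Partners of the methyltransferases moved both ways too. Of 12 tested, 4 rose, 6 fell and 2 did not pass at 5 µM against control, where 78.2% of all genes were called. Their median was -0.10. Over the alternatives the median of the list ranged from -0.21 to 0.03. The lowest came without the low count filter, where 13 genes of the list were tested. CDCA7, which activates the remodeller HELLS for DNA methylation and is, like DNMT3B and HELLS, mutated in forms of the ICF immunodeficiency syndrome, fell to 10.99 ± 1.91 CPM at 5 µM, against 56.6 ± 3.30 CPM in the controls (-2.38 ± 0.09, edgeR adjusted p = 1.17e-22). HELLS itself fell by less (-0.38 ± 0.08, edgeR adjusted p = 0.00012), and was at 45.1 ± 3.91 CPM at 2.5 µM and 40.3 ± 4.75 CPM in the controls. The histone methyltransferase EHMT2 fell (-0.56 ± 0.05) and DMAP1, a DNMT1-binding protein, rose (0.49 ± 0.06). PCNA, the replication clamp that brings DNMT1 to the fork and that is counted among the S phase genes too, fell to 225 ± 8.88 CPM at 5 µM, against 296 ± 6.47 CPM in the controls (-0.39 ± 0.04, edgeR adjusted p = 4.32e-10).

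DNMT1 is usually counted among the genes of S phase. Of 27 S phase and E2F genes, 7 rose, 16 fell and 4 did not pass at 5 µM against control, with a median of -0.21, where 38.7% of all genes were higher and 39.4% lower. With library size scaling 10 were higher and 13 lower, and the median was -0.07. At 2.5 µM, 4 rose and 14 fell, where 30.7% of all genes were higher and 28.5% lower. The median there was -0.17, beside 0.02 over all genes. At 5 µM against 2.5 µM, 11 were higher and 10 lower, where 33.6% of all genes were higher and 34.8% lower. RRM2, a subunit of ribonucleotide reductase, fell to 126 ± 5.13 CPM at 5 µM, against 345 ± 5.48 CPM in the controls. The helicase factor CDC45 fell by 0.95 ± 0.06, whereas GINS4 of the same helicase (0.89 ± 0.05, with replicate 3 above the other 5 µM libraries) and the factor E2F2 (0.84 ± 0.07) rose. The difference between DNMT1 and this list was not tested.

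Base excision repair completes the removal begun by TET enzymes. Of 13 tested base excision and GADD45 genes, 4 rose and 9 fell at 5 µM against control, with a median of -0.35, where 38.7% of all genes were higher and 39.4% lower. With library size scaling 4 were higher and 7 lower, with a median of -0.21. At 2.5 µM against control, 5 rose and 6 fell, with a median of 0.06, where 59.1% of all genes were called. TDG, the glycosylase that cuts out the oxidised bases made by TET enzymes, fell to 12.4 ± 1.28 CPM at 5 µM, against 23.7 ± 2.45 CPM in the controls (-0.95 ± 0.09, edgeR adjusted p = 2.42e-11). At 2.5 µM TDG was at 24.8 ± 1.33 CPM (edgeR adjusted p = 0.552). The glycosylase NEIL2 fell by 1.83 ± 0.12, while the scaffold XRCC1 (0.70 ± 0.05) and the stress gene GADD45B (1.02 ± 0.06) rose. Of 10 tested genes for the TET co-substrate 2-oxoglutarate and TET partners, 2 rose, 5 fell and 3 did not pass at 5 µM. Of all genes 78.2% were called in that comparison with control. The median of the 10 was -0.25 and ranged from -0.28 to -0.11 over the alternatives. IDH2, a mitochondrial source of 2-oxoglutarate, was at 57.9 ± 4.93 CPM in the controls, 22.3 ± 2.16 CPM at 2.5 µM and 37.0 ± 1.16 CPM at 5 µM. D2HGDH, which clears the TET inhibitor D-2-hydroxyglutarate, fell by 1.22 on the log2 scale.

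Genes for the methyl donor S-adenosylmethionine split evenly, with 4 higher and 4 lower of 8 tested at 5 µM against control. Of all genes 38.7% were higher and 39.4% lower. The median of the 8 was 0.07, and 0.21 with library size scaling. Over all alternatives the median of the list ranged from 0.05 to 0.41. The highest came without the low count filter, where 11 genes of the list were tested. MAT2A, which makes S-adenosylmethionine outside the liver, fell to 149.5 ± 6.51 CPM at 5 µM, against 248 ± 13.9 CPM in the controls (-0.73 ± 0.05, edgeR adjusted p = 3.72e-15), where replicate 4 stood above the other 3. Methionine synthase MTR fell (-1.147 ± 0.061).

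**Figure D4:**
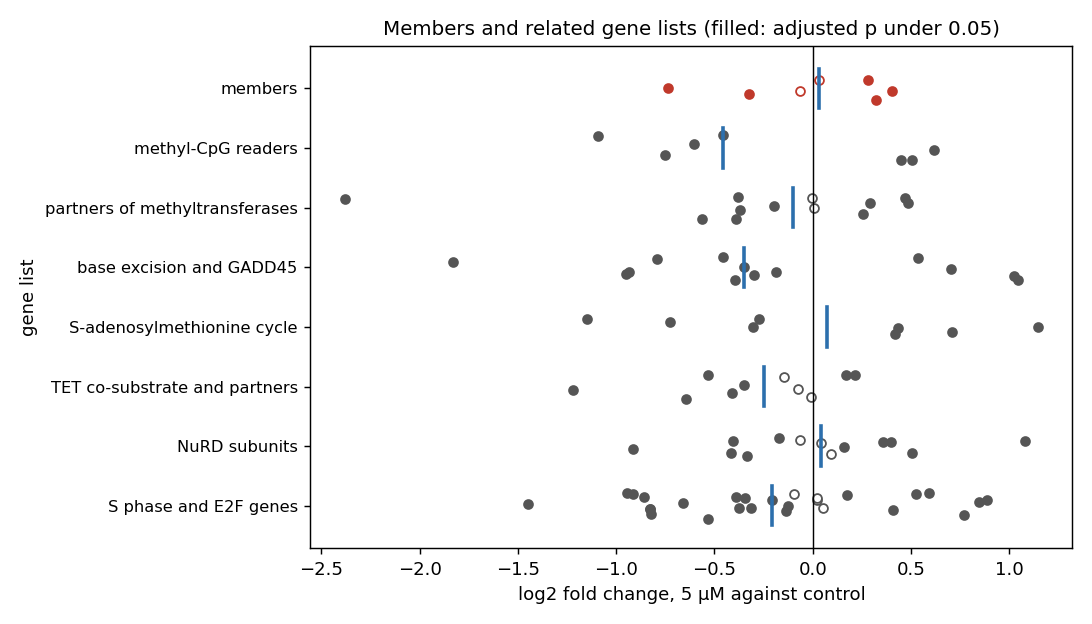
Log2 fold change at 5 µM against control of the 7 tested members and of the tested genes of 7 related lists, each point a gene, filled where the adjusted p was under 0.05, with the median as a bar. The members lie between -0.74 and 0.40, and each list holds genes on both sides of 0.

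Genes known to be held silent by promoter methylation were largely at or near 0 in the controls. Of 22 matched germline genes, 20 were under 1 CPM in the controls, 7 had 0 counts in all 12 libraries and 3 had enough counts to be tested. MAGEB2 was at 159 ± 1.504 CPM at 5 µM and 99.9 ± 6.77 CPM in the controls (0.67 ± 0.05, edgeR adjusted p = 1.80e-14), and MAGEA1 at 93.8 ± 2.55 CPM and 121 ± 5.93 CPM (-0.37 ± 0.05). Of 8 tested imprinted genes, 3 rose and 3 fell at 5 µM against control, where 38.7% of all genes were higher and 39.4% lower. H19 was at 416 ± 6.59 CPM in the controls, 188 ± 15.2 CPM at 2.5 µM and 295 ± 17.5 CPM at 5 µM, and CDKN1C, a cell cycle inhibitor, fell by 2.42 ± 0.06. MEST, an imprinted hydrolase gene, rose by 0.865 on the log2 scale. IGF2, the growth factor gene beside H19, was another that rose and, like ASZ1 among the germline genes, passed the filter on low counts through its 5 µM libraries. Both were picked out after their values were seen. IGF2 was at 38.5 ± 9.61 CPM at 5 µM and 0.115 ± 0.0945 CPM in the controls, and ASZ1 at 6.68 ± 0.614 CPM and 0.306 ± 0.192 CPM. The methylation state of these genes is not known from these data.

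The genes whose levels over the 12 libraries were most like each member were looked up among 11085 protein-coding genes. Since the libraries fall into 3 groups, Pearson's r reads mostly the 3 group means and is given as a description with no p. For DNMT3B the closest were LRRC28 (r = 0.99) and PYCR3 (r = 0.99), the last an enzyme of proline synthesis at 15.9 ± 0.796 CPM at 5 µM and 37.3 ± 4.05 CPM in the controls. For MBD2 they were the interferon-induced IFIT2 (r = 0.99) and ZNRF2 (r = 0.99), both highest at 2.5 µM, where IFIT2 had 28.1 ± 3.13 CPM. For DNMT1 they were CLUH (r = 0.987) and CCDC85C (r = 0.985), and for UHRF2 DSCC1 (r = 0.98) and SRP19 (r = 0.98). TET2 was most like the deacetylase gene SIRT1 (r = 0.93) and PCMTD1 (r = 0.92). DNMT3A and TET3, which did not pass against control, had less close neighbours, with ZNF362 (r = 0.86) and TNFSF13 (r = 0.83) as the closest.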

How the data were processed

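Per the labels' protocols, stranded poly-A libraries were made from total RNA with a TruSeq kit and sequenced on a NextSeq500. The authors deposited raw read counts per Ensembl gene. The submitters' processing notes give the build GRCh37 and, with no roles, featureCounts 1.4.6, STAR 2.4.1d and edgeR 3.8.6, besides cutadapt and other tools. Whether counting used the strand is not given in the sources used here.

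Groups came from the sample labels. Symbols were found for 51989 of 63152 rows, holding 99.3% of counts, from GENCODE 29 and a table of gene names, and merged exon lengths came from GENCODE 29 on GRCh38. All 12 libraries entered 1 edgeR 4.0.16 quasi-likelihood fit in R 4.3.3, after filterByExpr and TMM scaling, with p-values adjusted by Benjamini-Hochberg over 16839 genes and called at 0.05. The SE is the absolute log2 fold change divided by the square root of F. CPM use the TMM-scaled library sizes, and likeness used log2 CPM with a prior count of 2. The fit was tested on simulated data with 200 of 16839 genes changed, far fewer than were called here. There 36% to 44% of 1.25-fold and 74% to 80% of 1.5-fold changes were recovered. The adjustment is stricter where fewer genes change, so these shares do not carry over to the data. How many small changes were missed here is not known. Replicates of a group differed by more than sampling noise in every pair. The alternatives were other scalings, other filters, DESeq2 1.42.0, fits to 8 libraries, a replicate block and leaving out each library.

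The members and gene lists were chosen with earlier results of these data known. From each list the text names the 2 largest rises and 2 largest falls at 5 µM against control among called genes without overlap and with a mean log2 CPM of at least 1, or some of them, with HELLS, PCNA, TDG, MBD3 and MAT2A whatever their values. Some genes that this rule names are not reported here. For each tested member the 2 protein-coding genes of highest Pearson's r were looked up.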

Additional observations from a re-analysis of the deposited data

Results flagged for a closer look

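In 7 of 141 sets of 4 libraries, taken over 47 genes and the 3 groups, 1 library stood apart from the others by Dixon's criterion (0.829), where chance gives about 1 in 20. DNMT3A had 8.18 CPM in replicate 1 at 5 µM, below the other 3 at 9.87 to 10.2 CPM. TET1 had 0.146 CPM in replicate 3 at 5 µM, below 0.343 to 0.374 CPM in the others, a difference of a few reads. MAT2A had 268.5 CPM in control replicate 4, above 239 to 242.5 CPM in the others. GINS4 had 151.0 CPM in replicate 3 at 5 µM, above 134.5 to 137 CPM. RRM2 had 204 CPM in replicate 1 at 2.5 µM, below 209 CPM in the others. SDHA, a subunit of succinate dehydrogenase, had 429.9 CPM in replicate 4 at 2.5 µM, above 393 to 396 CPM, and the fibroblast marker COL1A1 had 34.95 CPM in replicate 1 at 5 µM, above 29.4 to 29.6 CPM.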

How the results depend on the processing

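The calls of DNMT1, DNMT3B, MBD2, UHRF2 and TET2 at 5 µM against control held in all 20 alternatives, as did those of DNMT1, DNMT3B and MBD2 at 2.5 µM against control. The number of all genes called ranged from 12767 to 15618, from 9382 to 10087 and from 10928 to 13125 for 5 µM against control, 2.5 µM against control and 5 µM against 2.5 µM. Members called at 5 µM against 2.5 µM numbered 2, not 4, with RLE, upper quartile or library size scaling and with DESeq2, and 1 to 4 when a library was left out (1 without 5 µM replicate 3, 2 without 2.5 µM replicate 1 or 5 µM replicate 4). Library size scaling moved the median log2 fold change of all genes at 5 µM against control to 0.12, against -0.01 with TMM. With that scaling TET3 turned to 0.0681 and 5 of 8 tested imprinted genes were called as higher. It called 13105 of 16839 genes, 58.31% of them as higher. Without the low count filter 6 of 15 tested germline genes were called as higher at 5 µM against control. That fit called 15618 of 30981 genes, 54.83% of them as higher. DNMT3A lost its call between doses there. The sign of DNMT1 between doses, -0.0048, turned to 0.0326 with RLE, 0.0325 with DESeq2, 0.049 with upper quartile and 0.085 with library size scaling, 0.0116 with the 1 CPM filter, 0.0078 with 8 libraries, 0.0172 without 2.5 µM replicate 4, and 0.0045, 0.0036 and 0.0122 without 5 µM replicates 2, 3 and 4 (range -0.0271 to 0.0172 with a library left out). DNMT3A at 5 µM against control turned to -0.0109 without control replicate 4 (range to 0.0879), and TET2 between doses to -0.0123 without 2.5 µM replicate 4 (range to 0.1066). The cause of these changes was not tested. The median of the methyltransferase partners at 5 µM against control ranged from -0.21 to 0.03. The lowest came without the low count filter, where 13 of these genes were tested and not 12. No sign of pairing by replicate number was seen. Deviations of same-numbered libraries correlated at -0.13 to 0.07, and 1 of 12 libraries correlated best with its own number. Such correlations cannot show how the cultures were handled. With a replicate block 13091, 9828 and 11423 genes were called, and no call of a tested member changed. Depth limits DNMT3B, with 203 counts at 2.5 µM, and TET1.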
